A study of Homo sapiens with 2 samples.

Results

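The E2F and retinoblastoma family genes are the 8 genes of the E2F transcription factors, E2F1 to E2F8, with RB1 and RBL1, the genes of the pocket proteins pRB and p107. These 10 genes were taken as a fixed list and make up 10 of the 19974 protein-coding RefSeq genes on chromosomes 1 to 22 and X. The data were ChIPmentation peak lists from PANC-1, an established line of human pancreatic ductal adenocarcinoma. ChIPmentation is chromatin immunoprecipitation in which Tn5 transposase inserts the sequencing adapters into the captured chromatin. One list came from 1 sample treated with inflachromene, a small-molecule ligand of the chromatin proteins HMGB1 and HMGB2, and one from 1 sample treated with DMSO, its solvent. Cells of both samples were fixed with EGS and formaldehyde, and neither dose, treatment time nor antibody target is given in the sources used here.

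E2F proteins bind promoters of genes needed for entry into S phase, most of them as dimers with a DP protein. E2F1, E2F2 and E2F3 are known as activators that pRB holds in check until cyclin-dependent kinases phosphorylate it. E2F4 and E2F5 act mainly as repressors together with p107 or p130, E2F6 represses with a Polycomb complex and binds no pocket protein, and E2F7 and E2F8 repress without a DP partner. Several genes of the family are known E2F targets themselves.

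Of the 10 genes, 6 had a peak at a gene end in both lists, namely E2F1, E2F3, E2F4, E2F6, E2F7 and E2F8. RB1 had one in inflachromene alone, E2F5 and RBL1 had one in DMSO alone, and E2F2 had none at an end in either list. A gene counted as having a peak at an end where a summit, the highest point of a peak, lay within 1000 bp of either end of the RefSeq gene. In all, 7 members had such a peak in inflachromene, against 38.2% of all protein-coding genes. In DMSO 8 members had one, against 45.8% of all. Each treatment had a single sample, so there was no test, and every difference is one between these libraries and not between the conditions.

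The sequences before 5 starts are printed because these are the member promoters that hold the E2F letters TTGGCGC, 4 of them at a gene with a peak at this start in at least 1 list and the other, E2F2, with none. E2F4 and E2F6, which also had a peak at the start in both lists, lack these letters and are not printed. RefSeq promoters of the GRCh38.p14 build, each running from 250 bp before to 50 bp after a start, listed the outer start of 7 members, E2F1, E2F2, E2F3, E2F4, E2F6, E2F7 and RBL1. Shown here are the 150 bases before the start, 5′ to 3′ along the gene's own strand. They lie at chr20:33686386-33686535 (minus strand) for E2F1, chr1:23531234-23531383 (minus) for E2F2 and chr6:20401729-20401878 (plus) for the outer start of E2F3. Those of E2F7 lie at chr12:77065570-77065719 (minus) and those of RBL1 at chr20:37095998-37096147 (minus). Capitals mark the letters TTGGCGC or TTCCCGC, which are forms of the E2F recognition motif, on either strand.
E2F1: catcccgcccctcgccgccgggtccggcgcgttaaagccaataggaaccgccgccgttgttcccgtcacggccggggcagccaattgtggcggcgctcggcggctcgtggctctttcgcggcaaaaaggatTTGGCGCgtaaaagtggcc
E2F2: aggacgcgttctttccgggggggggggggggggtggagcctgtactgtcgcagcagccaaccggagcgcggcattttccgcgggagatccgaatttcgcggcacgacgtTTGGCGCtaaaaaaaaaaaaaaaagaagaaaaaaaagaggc
E2F3: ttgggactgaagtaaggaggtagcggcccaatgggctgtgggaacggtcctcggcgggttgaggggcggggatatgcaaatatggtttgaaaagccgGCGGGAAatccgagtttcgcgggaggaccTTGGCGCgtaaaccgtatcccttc
E2F7: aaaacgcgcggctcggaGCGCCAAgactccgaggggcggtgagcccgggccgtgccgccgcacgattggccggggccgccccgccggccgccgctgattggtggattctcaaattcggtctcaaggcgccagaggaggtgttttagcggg
RBL1: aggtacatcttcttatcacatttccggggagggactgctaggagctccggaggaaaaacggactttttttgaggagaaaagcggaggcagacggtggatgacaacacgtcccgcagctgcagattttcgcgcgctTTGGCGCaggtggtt

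At least 1 of these E2F letter runs was in the 300-base promoter of 6 of the 7 members, all but E2F4, against 11.5% of 22132 protein-coding promoters. TTGGCGC was in 5 of them (E2F1, E2F2, E2F3, E2F7 and RBL1), against 3.84% of all promoters. TTCCCGC was in 2 (E2F3 and E2F6), against 8.14% of all promoters. In E2F6 it began 14 bases after the start and so lies outside the kind of stretch printed above. In RBL1 the match began 15 bases before the start, in E2F1 19, in E2F2 41 and in E2F7 133. The outer start of E2F3 had both, TTCCCGC on the opposite strand 53 bases before the start and TTGGCGC 24 bases before it. The 22132 promoters include inner starts of genes, while only outer starts were counted for the 7 members. An inner start of E2F3 and one of RB1 were also listed, and neither promoter held an E2F letter run.

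The matches at E2F1, E2F3, E2F6 and E2F7 lay inside the called peak of both lists. The match at RBL1 lay inside the DMSO peak alone, and the match at E2F2 in no peak. Among promoters that held a summit, 17.0% in inflachromene and 17.1% in DMSO had an E2F letter run. CCAAT, the letters bound by NF-Y, occurred 3 times at E2F1, 4 times at E2F3 and 4 times at E2F7. It was in 34.6% of all promoters, and among those with a summit in 46.0% in inflachromene and 43.5% in DMSO. GGGCGG, a GC box, was in 5 of the 7 members against 56.3% of all promoters. Among promoters with a summit its share was 79.1% in inflachromene and 79.2% in DMSO. TTTGAA, the CHR element of cell-cycle promoters, was in E2F3 against 12.4% of all promoters, and among those with a summit in 8.18% in inflachromene and 8.33% in DMSO. Both strands were searched for each motif, matches of different motifs were free to overlap, and a match is a description of the letters and not evidence of binding.

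Among the activator genes, E2F1 had the peak with the highest fold enrichment of the family in both lists. Fragments at a summit, the pileup, were worked out from the deposited fold enrichment and −log10 p of each peak. The E2F1 summit held 44 fragments in inflachromene (exact Poisson 95% interval 32.0 to 59.1) and 35 fragments in DMSO (24.4 to 48.7). The fold enrichment, the summit pileup over the local background with the same small constant added to both, was 13.7 in inflachromene and 11.4 in DMSO. The peak spanned chr20:33686346-33686721 in inflachromene and chr20:33686340-33686719 in DMSO. The summit lay 114 bp before the start in inflachromene and 169 bp before it in DMSO, which is upstream of the E2F letters printed above. A separate DMSO peak of 23 fragments lay 1011 bp beyond the 3′ end of E2F1, just outside the window. That summit was 882 bp from an end of the neighbouring gene NECAB3 and had no partner in inflachromene.

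E2F2 had no peak within 1000 bp of an end in either list. Its 26.0 kb body held 1 DMSO peak, chr1:23528287-23528452, with 21 fragments (13.0 to 32.1) at 6.90-fold and a summit 2845 bp downstream of the start. This summit lay 31 bp from an end of the lncRNA gene LOC101928163, so the peak cannot be credited to E2F2. No inflachromene peak overlapped it. Of 278 DMSO peaks that also had 21 fragments and lay away from gene ends, 47.1% overlapped an inflachromene peak. The nearest peaks beyond the gene were 8.77 kb upstream in inflachromene (15 fragments) and 8.68 kb upstream in DMSO (27 fragments).

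E2F3 had a pair of peaks in each list, and their positions followed the pair of starts in the RefSeq promoter table. Transcripts from these starts are known to encode E2F3a and E2F3b, which differ at their amino end. At the outer start the summit held 44 fragments in inflachromene (32.0 to 59.1), at 9.45-fold, and 41 in DMSO (29.4 to 55.6), at 9.84-fold. The inflachromene summit was 145 bp before this start and the DMSO summit 224 bp before it. The peaks, chr6:20401498-20401877 in inflachromene and chr6:20401473-20401877 in DMSO, ended at the same base. Both summits also lay within 1000 bp of an end of the gene model LOC124901482, 993 bp away in inflachromene and 914 bp in DMSO.

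The other peak of E2F3 lay inside the gene, its summit 1658 bp from the outer start in inflachromene and 1609 bp in DMSO. Measured from the second start, these summits were 77 bp before it in inflachromene and 126 bp before it in DMSO. They were also 765 bp in inflachromene and 716 bp in DMSO from an end of LOC124901482, so neither E2F3 peak can be credited to E2F3 alone. The inner summits held 27 fragments in inflachromene (17.8 to 39.3) and 29 in DMSO (19.4 to 41.6). The second promoter of E2F3 held neither of the E2F letter runs and no CCAAT, and 77.3% of its bases were G or C against 58.3% at the outer start. Both E2F3 peaks lay in the highest local background of the family, 3.76 and 3.79 fragments per base in inflachromene and 3.27 and 3.37 fragments per base in DMSO. At the end peaks of the other members it lay between 0.94 and 2.29 fragments per base. The part of this background in the fold enrichment of E2F3 was not tested. Peaks inside the gene occurred at 1 member in inflachromene (E2F3), against 10.5% of all protein-coding genes, and at 2 members in DMSO (E2F2 and E2F3), against 15.0%.

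**Figure D1:**
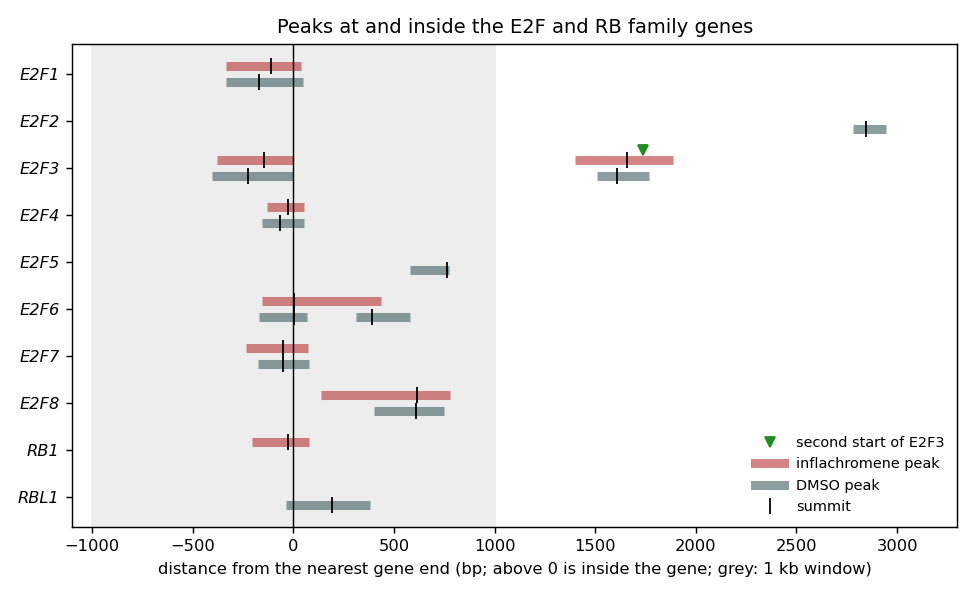
Peaks (bars) and summits (ticks) of each list, inflachromene above DMSO, by distance in bp from the nearest gene end, with the interior of the gene above 0. Nearly all lie in the grey window of 1000 bp, while the E2F2 peak is 2845 bp inside the gene and the inner E2F3 peaks sit beside the second start of that gene. The DMSO peak 1011 bp beyond the 3′ end of E2F1 is not drawn.

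Of the repressors that act with pocket proteins, E2F4 had a weak peak in both lists and E2F5 one in DMSO alone. E2F4 had 11 fragments in inflachromene (5.49 to 19.7), at 6.20-fold, and 14 in DMSO (7.65 to 23.5), at 7.08-fold. Its summit lay 27 bp before the start in inflachromene and 69 bp before it in DMSO. Among all gene-end peaks of the same list this pileup stood at percentile 2.06 in inflachromene and 9.36 in DMSO, so the E2F4 peak was low in both lists. Its promoter was the only one of the 7 without an E2F letter run.

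E2F5 had a DMSO peak of 13 fragments (6.92 to 22.2) at 5.85-fold, on chromosome 8, and no inflachromene peak. The summit lay 762 bp inside the gene from its lower-coordinate end, and 875 bp from an end of the lncRNA gene E2F5-DT. The promoter table used here has no entry for E2F5. Of 194 DMSO gene-end peaks with 13 fragments, 36.1% (29.3 to 43.3) overlapped an inflachromene peak, so most DMSO peaks of this height had no partner. A stronger peak beyond the other end of E2F5, at an end of RBIS, was present in both lists. It held 29 fragments at a distance of 5.98 kb in inflachromene and 35 fragments at 6.02 kb in DMSO.

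E2F6 had a peak at its start in both lists, with summits at the same base, 3 bp inside the gene. The summit held 19 fragments in inflachromene (11.4 to 29.7), at 7.57-fold, and 21 in DMSO (13.0 to 32.1), at 8.39-fold. In inflachromene a single peak of 594 bp (chr2:11465726-11466319) overlapped both of the DMSO peaks at this end. These were a peak of 236 bp at the start and a separate one of 268 bp with 12 fragments, 392 bp inside the gene.

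The genes of the atypical E2Fs, E2F7 and E2F8, both had a peak in both lists. E2F7 had 27 fragments in inflachromene (17.8 to 39.3), at 9.80-fold, and 32 in DMSO (21.9 to 45.2), at 11.4-fold. Its summit was 52 bp before the start in inflachromene and 53 bp before it in DMSO. E2F8 had 24 fragments in inflachromene (15.4 to 35.7), at 9.62-fold, and 22 in DMSO (13.8 to 33.3), at 8.20-fold. Its summit was 612 bp inside the gene in inflachromene and 610 bp inside it in DMSO, counted from the upper-coordinate end, and no promoter entry for E2F8 was in the table used here. The inflachromene peak of E2F8 was 639 bp wide and the DMSO peak 349 bp.

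The pocket protein genes each had a weak peak in 1 list, and in opposite lists. RB1, encoding pRB, had 13 fragments in inflachromene (6.92 to 22.2) at 6.48-fold, chr13:48303546-48303826, and no DMSO peak. The summit lay 28 bp outside the lower-coordinate end of RB1 and 21 bp from an end of the lncRNA gene RB1-DT, so the peak cannot be credited to 1 of them. RBL1, encoding p107, had 14 fragments in DMSO (7.65 to 23.5) at 6.31-fold, chr20:37095615-37096032, and no inflachromene peak. Its summit was 194 bp downstream of the start.

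The absence of a called peak sets no measured level, since the lists hold only peaks above the calling threshold. The lowest pileup called anywhere was 7 fragments in both lists. Of 178 inflachromene gene-end peaks with 13 fragments, the height at RB1, 82.0% (75.6 to 87.4) overlapped a DMSO peak. Of 224 DMSO gene-end peaks with 14 fragments, the height at RBL1, 38.4% (32.0 to 45.1) overlapped an inflachromene peak. The 2 members in DMSO alone were 2 of the 8 with an end peak there (25%, exact Clopper-Pearson interval 3.18 to 65.1), against 20.2% of all genes with a DMSO peak. RB1 was 1 of 7 with an end peak in inflachromene (14.3%, 0.361 to 57.9), against 4.16% of all genes with an inflachromene peak. With so few genes both intervals are wide and include the share over all genes. They describe a fixed list of genes and are not a test.

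**Figure D2:**
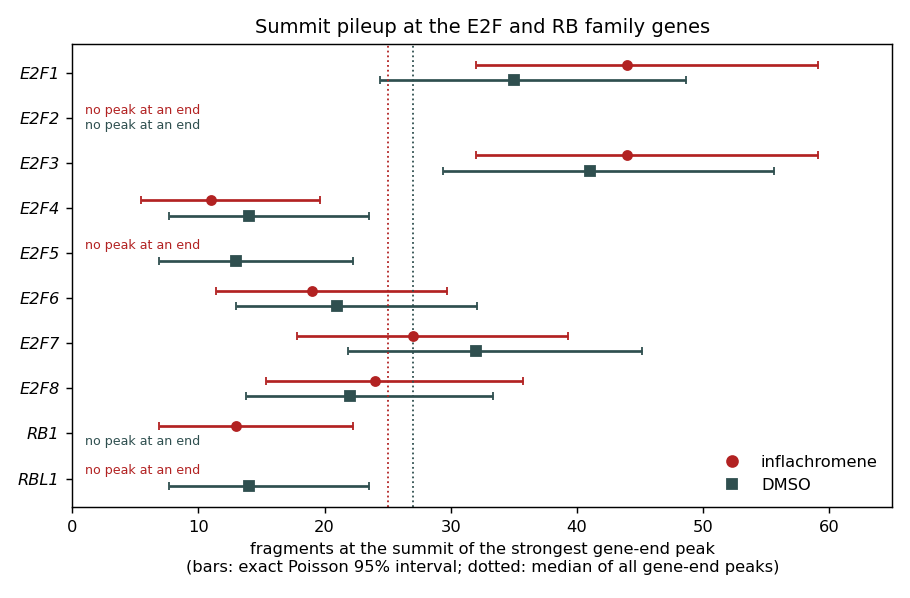
Fragments at the summit of the strongest gene-end peak of each gene, inflachromene (circles) above DMSO (squares), with exact Poisson 95% intervals. E2F1, E2F3 and E2F7 lie above the dotted medians of all gene-end peaks, 25 fragments in inflachromene and 27 in DMSO, while E2F4, E2F5, RB1 and RBL1 lie at 14 fragments or fewer.

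Ordered by DMSO pileup the genes ran E2F3, E2F1, E2F7, E2F8, E2F6, then E2F4 and RBL1 level, and E2F5. In inflachromene E2F1 and E2F3 were level at 44 fragments, followed by E2F7, E2F8, E2F6, RB1 and E2F4. Neighbours in either order had overlapping counting intervals. E2F1 and E2F3 stood at percentile 85.2 of all gene-end peaks in inflachromene and at percentiles 68.0 and 76.6 in DMSO. Among the values near the edge of the window, E2F8 and E2F5 lay inside it at 612 and 762 bp, and the DMSO peak beyond E2F1 at 1011 bp and the inner E2F3 peaks lay outside it.

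Where both lists had a peak, the summit pileup was lower in inflachromene at 3 of 6 members (E2F4, E2F6 and E2F7) and higher at 3 (E2F1, E2F3 and E2F8). Over all 7267 genes with a shared end peak it was lower at 77.5%. As a ratio of inflachromene over DMSO, the pileup came to 1.26 at E2F1 (95% counting interval 0.788 to 2.02), 1.07 at E2F3 (0.685 to 1.68) and 1.09 at E2F8 (0.586 to 2.04). It was 0.905 at E2F6 (0.46 to 1.77), 0.844 at E2F7 (0.486 to 1.45) and 0.786 at E2F4 (0.323 to 1.86). The median over the 6 members was 0.989, against 0.821 over all genes. All 6 intervals included both 1 and the median of all genes, so no member's ratio could be told from either at this depth.

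The inflachromene library was inferred to hold 0.965 times the fragments of the DMSO library. Per fragment of each library the median ratio of the members was 1.025, above 1, against 0.851 over all genes. This scaling takes no account of fragment length, inferred as 165.7 bp in inflachromene and 152.4 bp in DMSO. The lowest background was 0.683 fragments per base in inflachromene and 0.651 in DMSO. The ratio of E2F1 stood at percentile 95.4 of all genes, that of E2F8 at 88.1 and that of E2F3 at 86.7, while E2F4 stood at 42.5. By fold enrichment, which also takes in the local background, the median ratio of the members was 0.932, against 0.859 over all genes. It was above 1 only at E2F1 (1.20) and E2F8 (1.17) and was 0.96 at E2F3. At the second start of E2F3 the pileup ratio was 0.931 (0.53 to 1.63). The local background, as a ratio of inflachromene to DMSO, was 1.15 at the outer peak of E2F3 and 0.886 at E2F8, against a median of 0.948 over all genes; its part in these ratios was not tested.

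**Figure D3:**
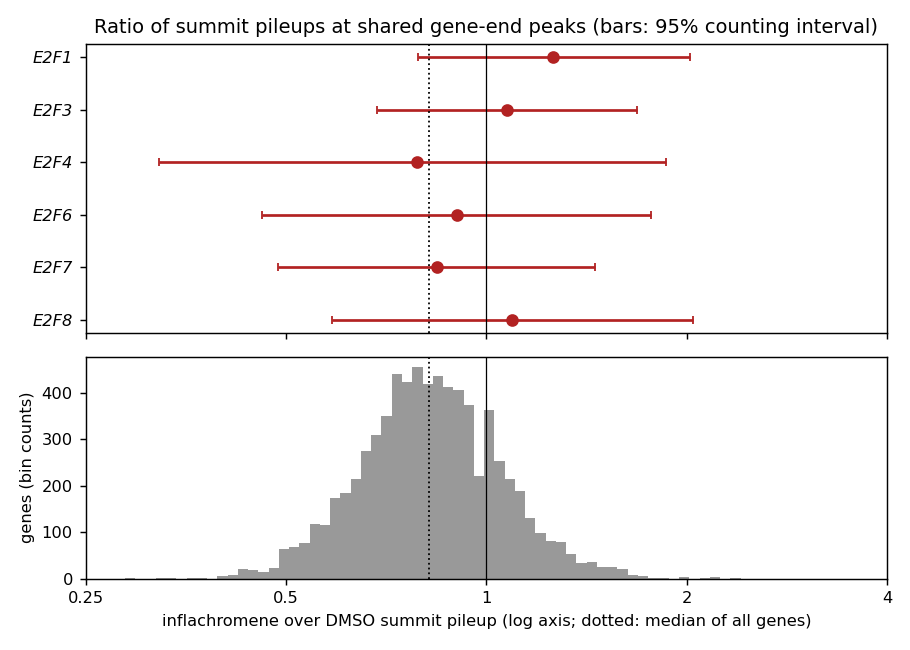
Ratio of inflachromene to DMSO summit pileup on a log axis, above for the 6 members with a shared end peak (bars, 95% counting interval) and below as a histogram of 7267 genes. The members spread from 0.786 to 1.26 on both sides of 1, with intervals that all cross the dotted median of all genes, 0.821.

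The shape of the shared peaks also varied among the members. The inflachromene peak was the wider at E2F6, E2F7 and E2F8 and the narrower at E2F1 (376 bp against 380 bp in DMSO), E2F3 (380 against 405 bp in DMSO) and E2F4 (184 against 212 bp in DMSO). Over all genes with a shared end peak the inflachromene peak was the wider at 30.4%, with median widths of 347 bp in inflachromene and 398 bp in DMSO. The summits of the 6 members were displaced between the lists by at most 79 bp, at E2F3, and by 0 to 2 bp at E2F6, E2F7 and E2F8. The median displacement over all genes was 36 bp.

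The partners of the family were described from fixed lists, chosen with earlier results of these data known, as counts with no test. They are to be read against the 38.2% of all protein-coding genes with a peak at an end in inflachromene and the 45.8% in DMSO. Of the DP partner genes, TFDP2 had 14 fragments in inflachromene and 28 in DMSO (ratio 0.5, interval 0.243 to 0.982), and TFDP1 had 16 fragments in DMSO alone. Among all ratio intervals of the listed genes only that of TFDP2 left out 1. It included 0.821, the median over all genes, so this ratio could not be told from that median. RBL2, encoding p130, the remaining pocket protein, had no peak within 1000 bp of an end. A DMSO peak of 15 fragments (8.39 to 24.7) lay 1026 bp inside RBL2, 122 bp before the second start that the promoter table lists, and had no inflachromene partner. Of 6 genes of the MuvB core and B-MYB, which form the DREAM and MYB-MuvB complexes, 5 had a peak in both lists and LIN9 had one of 20 fragments in DMSO alone. LIN52 had 69 fragments in inflachromene and 83 in DMSO. LIN37 had 66 in inflachromene and 65 in DMSO, and RBBP4 had 56 in inflachromene and 69 in DMSO, and each of these 3 genes shares its peak with the end of another gene. Fold enrichment was lower at LIN37 (10.1 in inflachromene, 9.4 in DMSO) than at RBBP4 (14.1 in inflachromene, 17.9 in DMSO). LIN54 had 33 fragments in inflachromene and 49 in DMSO.

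Of 9 genes of the E2F6 complex, a variant Polycomb complex, 6 had a peak in both lists and YAF2 had one of 14 fragments in DMSO alone, while RING1 and PCGF6 had none. CBX3 had 56 fragments in inflachromene and 69 in DMSO at a peak shared with HNRNPA2B1. MAX, the dimer partner of MYC and MGA, had 34 in inflachromene and 39 in DMSO. Fold enrichment was lower at CBX3 (8.13 in inflachromene, 8.61 in DMSO) than at MAX (12.2 in inflachromene, 12.8 in DMSO). L3MBTL2 had 26 in inflachromene and 25 in DMSO, and MGA 20 in inflachromene and 16 in DMSO. The median ratio of the 6 was 0.956, with 3 lower and 3 higher in inflachromene, against a median of 0.821 and 77.5% lower over all genes. Of 8 genes of co-repressors known to work with pRB, 3 had a peak in both lists (37.5%, near the share over all genes) and 5 had none. ARID4A had 75 fragments in inflachromene and 70 in DMSO, HDAC1 44 in inflachromene and 52 in DMSO, and HDAC2 19 in inflachromene and 24 in DMSO.

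Of 15 genes of cyclins, kinases and inhibitors that act upstream of pRB, 9 had a peak in both lists and CCNE2 had one of 17 fragments in DMSO alone, shared with NDUFAF6. The median ratio of these 9 was 0.776, with 7 lower and 2 higher. Over all genes with a shared end peak the median was 0.821, and 77.5% were lower. CDK2 had 66 fragments in inflachromene and 85 in DMSO at a peak shared with RAB5B. CDK4, a kinase that phosphorylates pRB, had 59 in inflachromene and 62 in DMSO. CDKN2D, encoding the inhibitor p19, had 33 in inflachromene and 48 in DMSO, and CCNE1, encoding cyclin E1, 32 in inflachromene and 48 in DMSO. No peak lay at an end of CCND2, CDK6, CDKN1A, CDKN2A or CDKN2B. Whether each of these loci is present in the genome of the line was not examined, so these absences are not read as unoccupied ends.

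Of 26 known E2F target genes, 21 were bound in both lists and 3 in neither, while TYMS (27 fragments) and CHEK1 (14) had a peak in DMSO alone. In inflachromene 80.8% of the targets had a peak, against 38.2% of all genes, and in DMSO 88.5%, against 45.8%. The targets were listed with earlier results of these data known, and the difference from all genes was not tested. The median ratio of the 21 was 0.821, the same as over all genes to 3 digits, with 15 lower and 6 higher. Of all genes with a shared end peak 77.5% were lower. TK1, encoding thymidine kinase, had 81 fragments in inflachromene and 74 in DMSO at a peak shared with AFMID. PCNA, the replication clamp, had 52 in inflachromene and 67 in DMSO at a peak shared with CDS2. RRM1, a ribonucleotide reductase subunit, had 49 in inflachromene and 67 in DMSO, and MCM3, a helicase subunit, had 59 in inflachromene and 77 in DMSO.

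**Figure D4:**
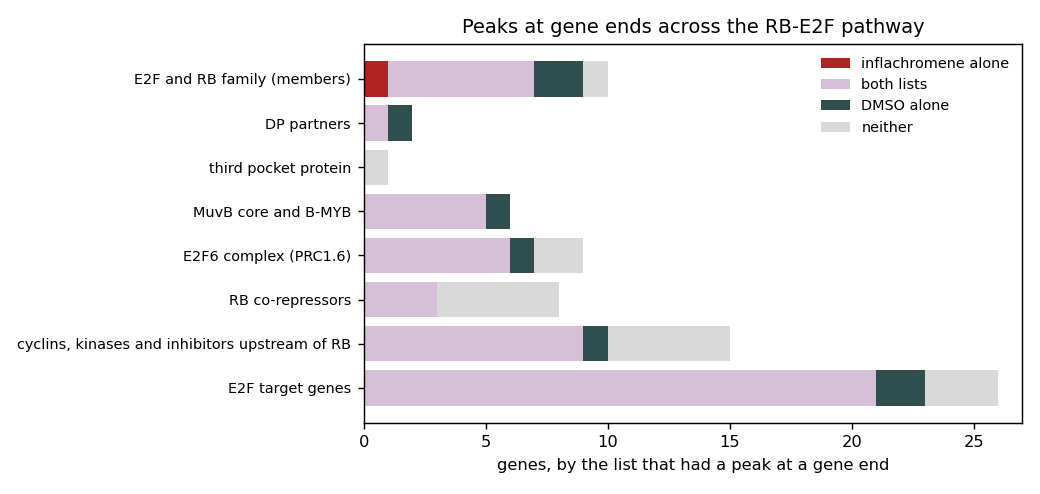
Number of genes in each list by where a peak at a gene end was called, in inflachromene alone, both lists, DMSO alone or neither. In inflachromene alone stands only RB1, of the family, at a weak peak that cannot be told from one of RB1-DT. Over all protein-coding genes 1.59% are in inflachromene alone. The 26 targets have 21 genes in both lists.

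The markers listed for other cell types had no peak in either list, at 0 of 6 acinar and islet genes and 0 of 7 immune, fibroblast and endothelial genes. Of 7 epithelial and carcinoma line markers, 3 had a peak in both lists (KRT8 and KRT18 with a shared peak, and VIM). KRT19 had one in DMSO alone and KRT7, EPCAM and CDH1 had none. VIM, also a marker of mesenchymal cells, was listed as a carcinoma line marker and not as an epithelial one. Of these 7, 42.9% had a peak in inflachromene, against 38.2% of all protein-coding genes, and 57.1% in DMSO, against 45.8%. These are positions of peaks and not expression levels, and no cell type is read from the counts.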

How the data were processed

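The data were 2 deposited peak lists in narrowPeak layout, 1 for each treatment. The submitters' processing notes name MACS2, deepTools 3.5.6 and the hg38 build. Neither the aligner, the MACS2 version, a control nor any pooling is given in the sources used here. The authors' deposited values are a score (not used here), a fold enrichment, which is a ratio at the summit, the −log10 p and −log10 q, and the summit offset. The lowest deposited −log10 q was 3.01 in inflachromene and 3.02 in DMSO.

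From fold enrichment and −log10 p the whole-number pileup at each summit was recovered with the formulas known for MACS2. A match within 0.001 was found for all 10836 inflachromene and 15186 DMSO peaks on chromosomes 1 to 22 and X. More than 1 pileup matched at 4 inflachromene and 12 DMSO peaks, none of them named here. The relative number of fragments was inferred from the lowest background and its step size. Poisson, Clopper-Pearson and ratio intervals are exact. The Poisson and ratio intervals cover counting error only, and the Clopper-Pearson intervals treat genes or peaks as independent draws. Peaks were set against a RefSeq gene table of GRCh38.p14, and lists were compared by an overlap of at least 1 bp. A gene also counted as having a peak in a list where its end peak in the other list was overlapped. The members and gene lists were chosen with earlier results of these data known. All members were named, and of each list the genes in 1 list alone and up to 4 with the highest mean pileup. The alternatives were other windows, thresholds, list lengths and overlap rules. Python 3.11.15, numpy 2.4.6, pandas 2.3.3 and scipy 1.17.1 were used.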

Additional observations from a re-analysis of the deposited data

How the results depend on the processing

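Of 21 alternatives, 17 kept their value within 1.5 times, or, for the median ratio, between 0.822 and 1.28, the exact 95% interval of the ratio of summed pileups. With both lists held to the length of the shorter by −log10 p, 5 members had a DMSO peak, against 8, and 0 were in DMSO alone, against 2, while 11.5% of all genes with a DMSO peak were. E2F4, E2F5 and RBL1 dropped out of the shortened DMSO list, which keeps fewer weak peaks by construction. The same 7 members kept a peak in inflachromene, so E2F4 was then in inflachromene alone, as RB1 was. With a window of 500 bp E2F5 and E2F8 lost their end peaks, whose summits lie 610 bp or more inside the gene. This left 6 members with a peak in inflachromene, 6 in DMSO and 1, RBL1, in DMSO alone. With fold enrichment in place of pileup the median ratio of the members was 0.932. Per fragment of each library their median pileup ratio was 1.025 and so above 1, against 0.989 as recovered. This follows from the division by 0.965, which takes no account of fragment length. With the second start of E2F3 counted too, an alternative chosen after the data were examined, it was 0.931. With 50% reciprocal overlap 3 members were in DMSO alone, E2F6 added. The 2 members in DMSO alone were the same by each list's own summits, also added later. The classes of 4 of the 10 members, E2F4, E2F5, RB1 and RBL1, rested on peaks of 14 fragments or fewer, and the lists hold no level below the calling threshold.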
